A study of Mus musculus with 10 samples.

Results

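The regions described here are CpG-dense stretches of the mouse autosomes that lie far from any protein-coding gene. They were found by dividing the autosomes into tiles of 1 kb and keeping the tiles that held at least 15 distinct measured CpGs, lay outside every protein-coding gene and were more than 5 kb from every protein-coding gene end. The rule used position and CpG number only, and no methylation value. It kept 2462 of 165978 tiles with at least 3 measured CpGs, or 2462 of the 17182 autosomal tiles with at least 15. Of the other CpG-dense tiles, 12074 lay within 5 kb of a gene end and 2646 lay inside a gene but farther than 5 kb from its ends. The 2462 tiles held between 15 and 98 CpGs, with a median of 18, and their gap to the nearest protein-coding gene ran from 5009 bp to 2188 kb, with a median of 41925 bp.

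Genomic DNA from the testis of F2 mice was profiled by reduced representation bisulfite sequencing, in which bisulfite converts unmethylated cytosines and the share of reads that keep a cytosine gives its methylation. The 5 libraries of the control group and the 5 of the arsenic group carry treatment tags of those names. Strain, age, arsenic dose, the exposed generation and whether each library came from its own animal were not given in the sources used here, so p-values measure the spread between libraries, which may be technical. A tile's level is its methylated reads as a percent of all its reads, and in whole testis a level of this kind does not tell partial methylation in all cells from full methylation in some.

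Most CpGs of a mammalian genome are methylated, and the exceptions cluster in CpG islands, which usually mark promoters and stay free of methylation. Islands that lie away from annotated protein-coding promoters are called orphan islands, and many are known to be promoters of non-coding RNAs or regulatory elements near developmental genes, while others are methylated in particular tissues. In the testis most cells are male germ cells, whose DNA is methylated before birth and stays methylated through sperm formation, apart from most islands and the maternally imprinted regions.

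RefSeq places the promoters of 97 genes wholly inside these tiles. Among them is Trmt61b, by name a transfer RNA methyltransferase gene, although the annotation used put every protein-coding gene more than 5 kb away. Of the 97, 6 are printed here because they show the range of CpG content and methylation among the tiles. Each is 300 bases of GRCm38.p6, read 5′ to 3′ on the strand of its RNA, with the CpGs measured in all 10 libraries in capitals. They are the non-coding RNA promoters with the most measured CpGs in tiles of low level (under 20%), intermediate level (20% to 80%) and high level (over 80%), in that order.
Gm30684, chr7:38061311-38061610: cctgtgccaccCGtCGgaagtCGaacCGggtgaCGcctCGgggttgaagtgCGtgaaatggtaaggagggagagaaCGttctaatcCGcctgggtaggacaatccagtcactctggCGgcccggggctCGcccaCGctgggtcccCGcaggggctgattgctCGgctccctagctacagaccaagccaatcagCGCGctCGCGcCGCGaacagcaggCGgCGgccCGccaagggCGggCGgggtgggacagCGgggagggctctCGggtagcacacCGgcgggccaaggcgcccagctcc
Gm11205, chr11:79704320-79704619: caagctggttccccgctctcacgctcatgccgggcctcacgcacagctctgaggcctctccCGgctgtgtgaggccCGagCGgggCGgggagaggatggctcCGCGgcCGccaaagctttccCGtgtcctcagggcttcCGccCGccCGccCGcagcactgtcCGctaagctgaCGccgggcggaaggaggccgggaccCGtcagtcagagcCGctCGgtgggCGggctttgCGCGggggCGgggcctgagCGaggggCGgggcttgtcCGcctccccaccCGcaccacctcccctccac
4930590L20Rik, chr1:140656353-140656652: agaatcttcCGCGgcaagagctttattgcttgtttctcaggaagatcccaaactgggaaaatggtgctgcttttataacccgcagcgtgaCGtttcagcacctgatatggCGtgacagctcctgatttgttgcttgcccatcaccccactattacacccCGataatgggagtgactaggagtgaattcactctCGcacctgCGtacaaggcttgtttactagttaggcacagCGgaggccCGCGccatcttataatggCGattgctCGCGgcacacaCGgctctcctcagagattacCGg
Gm31399, chr11:114423382-114423681: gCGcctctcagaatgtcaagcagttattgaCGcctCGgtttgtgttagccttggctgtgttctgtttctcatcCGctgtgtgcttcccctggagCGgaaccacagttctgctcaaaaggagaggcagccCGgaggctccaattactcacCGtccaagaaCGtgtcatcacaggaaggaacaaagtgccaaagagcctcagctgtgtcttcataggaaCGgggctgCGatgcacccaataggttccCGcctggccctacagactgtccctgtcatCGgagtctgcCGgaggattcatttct
Gm30786, chr11:65660312-65660611: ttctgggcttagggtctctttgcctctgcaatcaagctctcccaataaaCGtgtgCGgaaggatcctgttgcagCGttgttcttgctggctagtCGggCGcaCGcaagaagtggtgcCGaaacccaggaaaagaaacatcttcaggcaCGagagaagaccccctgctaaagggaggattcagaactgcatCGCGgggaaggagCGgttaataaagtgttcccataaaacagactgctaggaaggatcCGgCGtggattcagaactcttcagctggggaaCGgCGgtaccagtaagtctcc
Gm29678, chr1:190403398-190403697: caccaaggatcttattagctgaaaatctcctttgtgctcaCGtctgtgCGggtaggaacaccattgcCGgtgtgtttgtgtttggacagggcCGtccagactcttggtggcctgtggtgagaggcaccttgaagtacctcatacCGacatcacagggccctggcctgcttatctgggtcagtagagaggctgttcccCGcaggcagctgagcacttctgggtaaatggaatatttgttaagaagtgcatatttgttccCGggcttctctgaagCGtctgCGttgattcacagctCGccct

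The 28 measured CpGs of the Gm30684 promoter, 36.0 kb from Ccne1, lay between 0% and 7.20% methylated, with a median of 1.08%. The 25 of Gm11205 lay between 0% and 3.97%. In the 4930590L20Rik promoter the 15 measured CpGs lay between 35.7% and 55.4%, and in Gm31399 the 13 lay between 22.1% and 42.1%, so that intermediate levels held across each promoter rather than coming from a few CpGs. In Gm30786 the 15 lay between 84.0% and 99.1%, and in Gm29678, 232 kb from Prox1, the 10 lay between 87.8% and 96.7%. The 103 promoter entries inside the tiles had a median of 14 CG pairs per 300 bases, against 7 over all 32851 entries of the table. The 86 in low tiles had a median of 16 and the 8 in high tiles 9.5. Counting tiles rather than entries, 76 of the 92 tiles with a whole promoter were low, 8 intermediate and 8 high. These classes are those of the whole tile, not of the promoter. Some promoters in low tiles, such as those of Chaserr and Snhg17, had no measured CpG.

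As a set the tiles were split between methylated and unmethylated states. Averaged over tiles, the control libraries had 50.01% ± 0.305 and the arsenic libraries 49.4% ± 0.496 (SD, n = 5 each), but few tiles lay near those means. Of 2462 tiles, 878 (35.7%) were low, 644 (26.2%) intermediate and 940 (38.2%) high, and 637 were under 10%. The median was 59.5% and the quartiles were 8.98% and 86.5%. CpG-dense tiles near gene ends were different in makeup: 88.6% of them were low and their median was 2.65%. CpG-dense tiles deep in gene bodies were 40.1% low and 43.3% high, with fewer at intermediate level (16.6%). CpG-poor tiles between genes, which have 3 to 14 CpGs and obey the same distance rule, were 7.52% low and 60.6% high. These shares describe 1 set of libraries and were not tested.

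**Figure D1:**
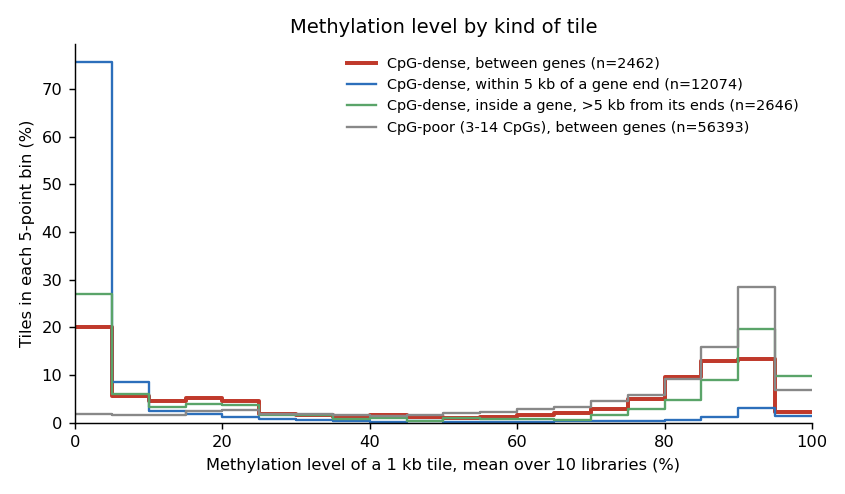
Share of tiles (y axis, percent of each kind) in 5-point bins of methylation level (x axis, mean over 10 libraries) for CpG-dense tiles between genes, CpG-dense tiles near gene ends, CpG-dense tiles inside genes and CpG-poor tiles between genes. The CpG-dense tiles between genes have a mode at each end of the scale, whereas 88.6% of those near gene ends lie under 20%.

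The level followed CpG number. Among tiles with 15 to 19 CpGs 448 of 1580 (28.4%) were low, a share that was 37.5% at 20 to 24 CpGs, 45.7% at 25 to 29, 80.2% of 131 tiles at 30 to 39 and 92% of 50 tiles at 40 or more. At gene ends the share was already 77.2% at 15 to 19 CpGs, and in each of these 5 bins the share of low tiles was smaller between genes than at gene ends. Of dense tiles inside gene bodies, 25.1%, 47.2%, 61.2%, 74.6% and 90.4% were low in the same bins. At the border of the rule, tiles between genes with 14 CpGs (551, median 75.7%) and with 15 (456, median 73.6%) had similar levels.

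It also followed distance from genes. Of the 350 tiles with a gap of 5 to 10 kb, 54.6% were low, compared with 42.4% at 10 to 20 kb, 43.6% at 20 to 50 kb, 35.4% at 50 to 100 kb and 20.7% at 100 to 500 kb. Beyond 500 kb 6 of 169 tiles (3.55%) were low and 62.1% were high, although the median CpG number, 17, was nearly that of the nearest tiles, 18. Just inside and outside the distance border, 59.5% of 74 dense tiles with a gap of 5 to 6 kb and 64.7% of 85 with a gap of 4 to 5 kb were low. The tile farthest from any gene was one of the 6 exceptions. It lay at chr18:28077001-28078000, 2188 kb from Pik3c3, overlapped the non-coding RNA Gm33860, and had 18 CpGs at 4.41% ± 3.79 in control and 2.54% ± 1.48 in arsenic libraries (SD, n = 5 each). The next farthest, chr14:82364001-82365000, 2079 kb from the protocadherin gene Pcdh17, was high at 91.3% ± 3.49 and 90.02% ± 2.17 (SD, n = 5 each).

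The neighbours of low tiles were mostly low at 1 kb and mixed beyond. The median level of low tiles was 3.95%. It was 11.2% in the measured tiles 1 kb upstream in coordinate order and 10.8% in those 1 kb downstream, then 55.9% and 78.1% at 2 kb. From 2 to 10 kb on either side the medians ran from 40.3% to 84.9%, and 22.6% to 42.1% of the neighbours were themselves low. For tiles of high level, with a median of 88.97%, the neighbours had medians of 87.9% and 88.8% at 1 kb. From 2 to 10 kb those medians ran from 83.2% to 88.95%. The lower quartile fell to 35.0% at 10 kb downstream, where 18.75% of the neighbours were low. Only neighbours with measured CpGs enter these medians, around low tiles 251 and 243 tiles at 1 kb and 134 and 114 at 2 kb.

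**Figure D2:**
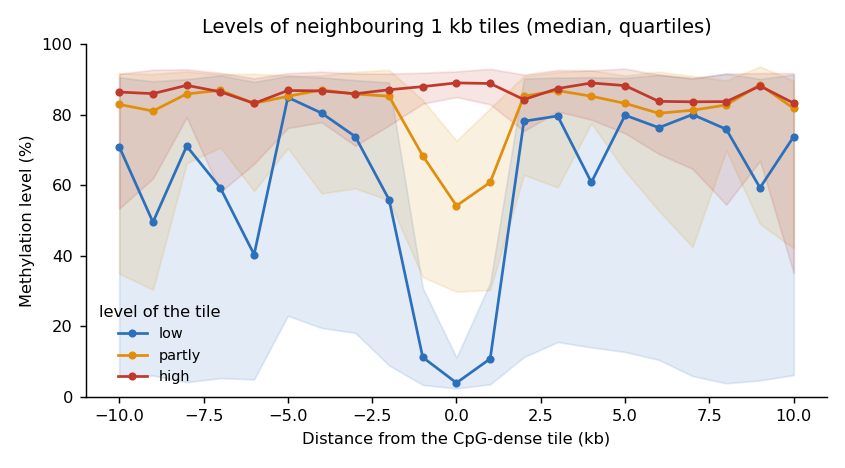
Median methylation level (points, y axis, percent) and quartiles (shading) of the 1 kb tiles at distances up to 10 kb (x axis) from CpG-dense tiles between genes, by the level of the central tile. The central level chose the groups, so only the points away from 0 are informative, and the low group goes from 3.95% at the centre to 55.9% and 78.1% at 2 kb and then varies between 40.3% and 84.9%.

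Within a tile the CpGs mostly shared a level, least so in intermediate tiles. The SD over the CpGs of a tile had a median of 2.81 points in low, 10.8 in intermediate and 6.61 in high tiles. In 151 of 644 intermediate tiles (23.4%) the lowest and highest CpG were more than 60 points apart, and in the other intermediate tiles 60 points or less. The same held for 95 of 940 high tiles (10.1%) and 15 of 878 low tiles (1.71%). Of 1865 tiles with at least 5 CpGs read on both strands, the strands differed by more than 10 points in 24. The spread between the 10 libraries, as a median SD, was 2.50 points in low, 4.87 in intermediate and 2.16 in high tiles.

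Tiles that overlapped an annotated non-coding gene or pseudogene had lower levels than tiles that overlapped none, a description with no test. Of 734 such tiles, 55.2% were low and 20.6% high, against 27.4% and 45.7% of the 1728 tiles with no annotated gene. The median CpG number was 18 in both. Long non-coding RNAs accounted for 511 tiles. Where an end of the RNA's gene lay in the tile, 128 of 170 tiles (75.3%) were low, and where the tile lay inside the gene only, 164 of 341 (48.1%). Transfer RNA and microRNA genes were almost always low, and 46.0% of pseudogene tiles lay between 10% and 30%.

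**Figure D3:**
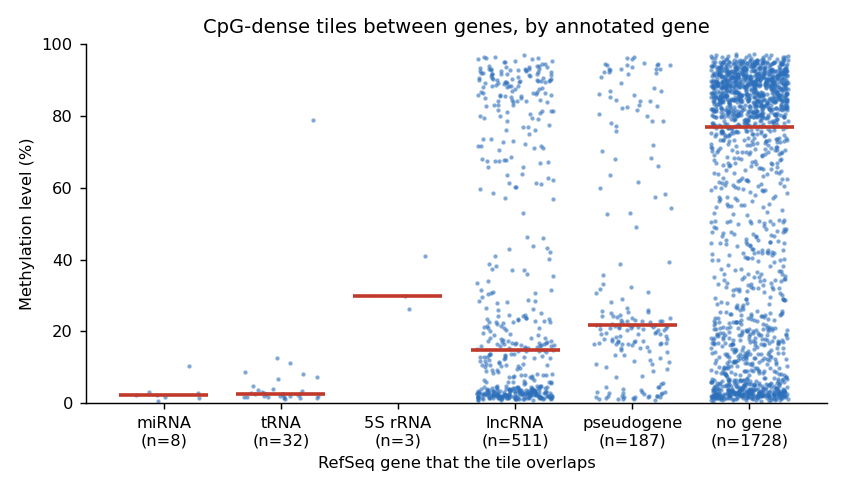
Methylation level (y axis, percent, mean over 10 libraries) of each CpG-dense tile between genes (points), by the RefSeq gene it overlaps (x axis), with the median of each column as a bar. MicroRNA and transfer RNA tiles have medians of 2.37% and 2.57%, with highest tiles at 10.5% and 78.9%. Pseudogene tiles have a median of 21.7%, and tiles with no annotated gene have a median of 76.9%.

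Among the long non-coding RNAs whose start regions lay in low tiles were several that are conserved between mammals and studied for a function. They were picked after their values were seen, as well-known names. The levels are those of the whole tile. No CpG was measured in the promoter sequences of Chaserr, Oip5os1 and Pantr2, so their levels come from other CpGs of the tile and leave the promoters themselves unmeasured. Chaserr, which restrains expression of the neighbouring chromatin remodeller gene Chd2, had 19 CpGs at chr7:73558001-73559000 with 7.01%, 0.905%, 0%, 3.03% and 0.344% in control libraries 1 to 5 and 1.18%, 0%, 0.299%, 0% and 1.32% in arsenic libraries 1 to 5. The groups overlapped, with control library 1 the highest, and the 3 libraries at 0% allow up to 0.567% to 0.796%, an upper limit of 3 reads that covers counting error only. Oip5os1, also called Cyrano, had 0.618% ± 0.305 and 1.35% ± 1.83 (SD, n = 5 each) at chr2:119594001-119595000. Dubr had 0.859% ± 0.496 and 0.996% ± 0.559, and Pantr2 1.07% ± 0.624 and 1.07% ± 0.873 (SD, n = 5 each).

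The non-coding RNA Lncpint, a p53-induced transcript, covered a run of 3 adjoining low tiles at chr6:31216001-31219000, 180 kb from Mkln1. The tile with its start, which held 41 CpGs, had 2.79%, 2.03%, 3.82%, 6.62% and 3.06% in control and 2.04%, 0.917%, 2.41%, 0.987% and 1.11% in arsenic libraries. The arsenic libraries were lower on average, but the ranges overlapped, and the adjusted p of the quasi-binomial fit described below was 0.808. The adjoining tile went the other way, 2.51% ± 1.63 in control and 6.37% ± 4.85 in arsenic libraries (SD, n = 5 each).

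Both states occurred within 1 gene. Tunar, a non-coding RNA tied to neural differentiation, had 34 CpGs at 1.89% ± 1.43 and 1.33% ± 0.747 in the tile near its start, and 16 CpGs at 82.5% ± 2.75 and 80.1% ± 5.73 in a tile farther inside it (SD, n = 5 each). Neat1, the scaffold of nuclear paraspeckles, had a high tile at chr19:5844001-5845000. The tile lay inside the gene but close to its boundary of higher coordinate, base 5845480. This tile had 79.3%, 76.3%, 78.7%, 81.8% and 74.4% in control and 86.4%, 81.1%, 85.5%, 81.7% and 81.6% in arsenic libraries. Here 4 of the control libraries lay under every arsenic library and control 4 did not, and the adjusted p was 0.808. Pvt1, a neighbour of the Myc oncogene, was intermediate and variable, from 28.3% to 54.0% in control and from 20.5% to 57.9% in arsenic libraries.

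Meg3, a maternally expressed imprinted RNA whose control region is methylated on the paternal allele, had 2 tiles of different level. The tile chr12:109540001-109541000 ends just after the RefSeq start of Meg3 at base 109540996, so it is almost wholly upstream sequence. It had 17.5% ± 3.83 in control and 17.2% ± 1.36 in arsenic libraries (SD, n = 5 each). Inside the gene, the tile chr12:109546001-109547000 had 81.1% ± 1.06 and 78.8% ± 2.25 (SD, n = 5 each). Its mean over the 10 libraries, 79.95%, was just within the intermediate class. For comparison, 8 regions at gene ends, methylated on the maternal allele, had control means of 7.08% to 15.1%. Their arsenic means were 6.13% to 14.6%. These regions rest on 8 to 29 measured CpGs each, and the SD over control libraries reached 11.2 points, at Plagl1. The region upstream of H19, which is methylated on the paternal allele, had 95.1% and 95.5%. It was the only region of its kind examined and rests on 3 measured CpGs. Those values check the tissue label, since such regions are intermediate in ordinary body cells, whereas low maternally methylated regions with a high H19 region are the known state of male germ cells.

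MicroRNA genes overlapped 8 tiles, all low, from 0.636% to 10.5%. They held 10 microRNA genes, of which 9 had mature sequences in the RefSeq table, 17 sequences with 17 different seeds. The mature forms from the loci described next are shown to identify them, with the seed (bases 2 to 8), which pairs with target messenger RNAs, in capitals.
mmu-miR-9-5p: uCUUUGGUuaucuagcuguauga
mmu-miR-129-5p: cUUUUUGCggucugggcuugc
mmu-miR-137-3p: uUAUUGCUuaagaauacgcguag
mmu-miR-193a-3p: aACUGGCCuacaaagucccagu

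The microRNAs miR-9, miR-129 and miR-137, like miR-124, are best known from the brain. The Mir9-1 tile, chr3:88215001-88216000, held 39 CpGs at 1.64% ± 2.63 in control and 3.10% ± 2.57 in arsenic libraries, and the Mir129-2 tile, chr2:94241001-94242000, held 32 at 1.25% ± 1.67 and 1.99% ± 2.44. The Mir124a-3 tile, chr2:180894001-180895000, held 22 at 1.82% ± 0.594 and 1.03% ± 0.792 (SD, n = 5 for each of these values). The Mir137 tile, chr3:118433001-118434000, had 0.671%, 0.419%, 0.542%, 0.256% and 0.444% in control and 6.12%, 17.5%, 1.74%, 1.41% and 0.519% in arsenic libraries. Every control library was under 1%, arsenic 2 and 1 stood above the rest and arsenic 5 overlapped the controls, and the adjusted p was 0.808 at a mean of 18.2 reads per cytosine. Mir193a lay across 2 tiles, of which the first, with 51 CpGs, was at 0.484% ± 0.372 and 0.788% ± 0.400 and the second, with 19 CpGs, at 10.1% ± 2.75 and 10.9% ± 2.25 (SD, n = 5 each).

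Transfer RNA genes, whose internal promoters are transcribed by RNA polymerase III, overlapped 32 tiles with 40 genes. Of these tiles 31 were low, and their median was 2.57%. Over the 32 tiles the library means were 6.44% ± 0.658 in control and 5.67% ± 0.216 in arsenic libraries (SD, n = 5 each). The exception was n-TMcat3 at chr15:69396001-69397000, 294 kb from Khdrbs3, with 15 CpGs at 87.4%, 77.0%, 82.6%, 72.2% and 82.6% in control and 79.2%, 75%, 75.6%, 75.7% and 81.3% in arsenic libraries, so that it was methylated in all 10. Genes of the 5S ribosomal RNA, also a polymerase III product, were intermediate in 3 tiles of chromosome 8. They had 25.3% ± 6.57 and 27.4% ± 5.84 at n-R5s142, 41.8% ± 8.78 and 40.2% ± 2.52 at n-R5s146, and 30.3% ± 1.08 and 29.4% ± 2.83 at n-R5s149 (SD, n = 5 each). Transfer and ribosomal RNA genes have near-identical copies, and how reads with several matches were placed was not given in the sources used here, so the level of 1 copy is uncertain.

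Pseudogene tiles ranged widely, with quartiles of 14.7% and 67.1% and 38 of 187 high, but many had levels near 20%. Of the 187, 86 (46.0%) lay between 10% and 30%, against 403 of all 2462 tiles (16.4%) and 215 of the 1728 tiles with no annotated gene (12.4%). This band was noticed in the values. Examples are Rps10-ps2, a copy of a ribosomal protein gene, at chr16:20822001-20823000 with 20.4% ± 2.86 and 23.1% ± 3.54, and Gpi-ps at 21.4% ± 4.56 and 21.3% ± 3.85 (SD, n = 5 each). Of 29 tiles with a pseudogene named after its parent gene, 16 lay in the band and 2 lay under 10%. Over the 86 tiles in the band the library means were 20.2%, 20.01%, 21.6%, 21.4% and 19.5% in control and 15.7%, 20.6%, 18.9%, 17.4% and 20.5% in arsenic libraries. The ranges overlapped, with arsenic 1 and 4 the lowest. A processed copy shares sequence with its parent gene, and the part of reads from unmethylated parent promoters in these levels was not tested.

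Nearest genes were used as labels of position, since these data hold no measure of which gene a tile acts on. Of 150 tiles whose nearest protein-coding gene is a developmental transcription factor, 101 (67.3%) were low and the median level was 5.17%, against 681 of 2014 tiles (33.8%) near genes outside the families compared. The median gaps were 32.1 kb and 44.9 kb. Tiles near zinc finger genes were 48.3% low (29 of 60), and those near odorant and vomeronasal receptor genes 12.5% low (9 of 72) and 52.8% high, at a median gap of 15.7 kb. These families were fixed by gene symbol with earlier results known. Their shares were not matched for CpG number, which the level followed, and were not tested.

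Several tiles near developmental factors were as CpG-rich as promoters. The tile at chr19:59451001-59452000, 6.69 kb from the forebrain homeobox gene Emx2 and within its antisense RNA Emx2os, held 45 CpGs and had 4.91%, 6.54%, 3.10%, 1.82% and 6.69% in control and 4.58%, 3.57%, 5.64%, 3.32% and 6.34% in arsenic libraries. The arsenic range lay within the control range. At chr13:56259001-56260000, 6.82 kb from the neural factor Neurog1, 44 CpGs had 0.868%, 2.22%, 1.02%, 0.35% and 1.89% in control and 1.27%, 0.443%, 1.25%, 4.53% and 1.31% in arsenic libraries. All 4 tiles nearest Neurog1 were low, as were all 5 nearest the kidney and brain factor Pax2, between 1.17% and 3.56% and up to 74.6 kb away. Near the zinc finger factor Sall1 1 of 6 tiles was low, and near Sox2, a factor of pluripotent and neural cells, 3 of 6, with the others reaching 95.2%.

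Adjoining members formed 100 runs of 2 or more tiles, 218 tiles in all, and in 86 runs every tile had 1 level class, 66 low and 14 high. The longest run, 6 tiles at chr17:39843001-39849000 about 102 kb from the pheromone gene Esp38, held 458 CpGs and overlapped Rn18s-rs5, an 18S ribosomal RNA sequence. Its tiles averaged 1048 to 1768 reads per cytosine, against a median of 39.8 over all members, and had levels of 13.6% to 19.4%. The tile with the most CpGs, chr17:39845001-39846000 with 98, had 18.8%, 17.5%, 15.7%, 22.8% and 21.7% in control and 18.1%, 17.3%, 16.9%, 16.96% and 24.8% in arsenic libraries. Controls 4 and 5 and arsenic 5 stood above the others and the groups overlapped. At this depth the difference in means, 19.3% ± 2.95 against 18.8% ± 3.40 (SD, n = 5 each), was smaller than the spread between libraries and not limited by counting error. Ribosomal RNA genes occur in many copies, and whether reads of other copies were placed here was not tested.

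Another 3 tiles exceeded 1000 reads per cytosine, at 86203.8, 23651.5 and 2234 in the order below, against a median of 39.8. They were chr2:98662001-98663000 at 37.8% ± 0.777 and 37.2% ± 1.15, chr2:98666001-98667000 at 46.1% ± 0.834 and 45.6% ± 1.08, and chr6:3201001-3202000 at 24.3% ± 2.22 and 23.2% ± 3.04 (SD, n = 5 each). With the run on chromosome 17 these 9 tiles took 55.2% of all reads in the 2462 tiles, and for that reason every mean over tiles here counts each tile once. No annotated gene overlapped these 3. Whether reads from copies elsewhere in the genome were placed there was not tested, so their levels may not be those of 1 locus.

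**Figure D4:**
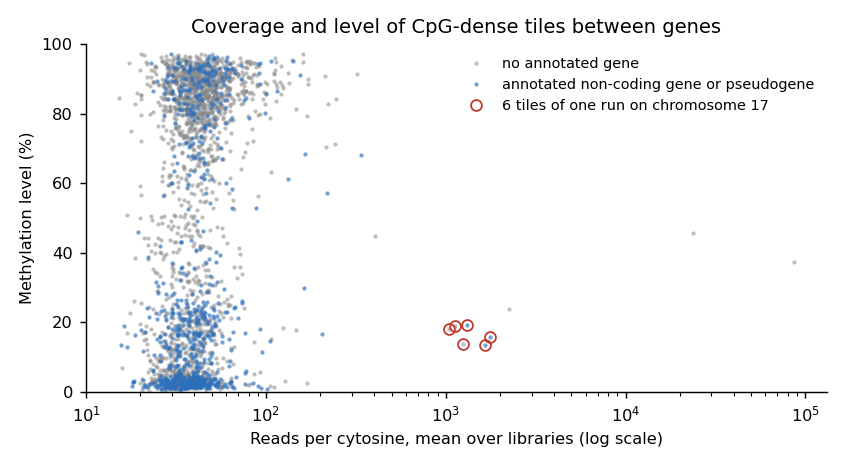
Methylation level (y axis, percent) against reads per cytosine (x axis, log scale, mean over libraries) for each of the 2462 CpG-dense tiles between genes. Most tiles lie near the median of 39.8 reads, and the 6 circled tiles of the run with Rn18s-rs5 lie between 1048 and 1768 reads at 13.6% to 19.4%.

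The next runs were 5 tiles at chr11:120185001-120190000, 33.7 kb from the transporter gene Slc38a10 and across the non-coding RNA 2810410L24Rik, at 2.79% to 24.4%, and 4 tiles each at chr1:89940001-89944000 (1.74% to 4.01%) and chr2:180891001-180895000 near Ythdf1 (1.42% to 3.18%), the latter with Mir124a-3. At the other end of the scale, 3 tiles near the hair-cell gene Grxcr1, chr5:68219001-68222000, were all high, at 86.2% to 91.3%. The most CpG-rich high tile, chr9:18009001-18010000, had 42 CpGs at 86.3% ± 3.08 in control and 87.3% ± 1.41 in arsenic libraries, in contrast to most tiles of that density. The 4 intermediate tiles with the most CpGs all lay within chr8:19784001-20425000, at 52.9% to 57.3%, and in each of them control library 3 was the lowest of the 10.

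The tiles that varied most between libraries were all intermediate and at 17.6 to 29.05 reads per cytosine. The tile at chr1:49474001-49475000, 1426 kb from Tmeff2, had 68.9%, 66.1%, 54.7%, 36.2% and 18.6% in control and 58.3%, 67.9%, 61.5%, 70.9% and 63.7% in arsenic libraries. Control 5 and 4 were the low libraries. At chr18:85214001-85215000, 233 kb from Fbxo15, control 5 was again the lowest at 32.9%, with the other controls from 66.2% to 88.9% and arsenic libraries from 44.99% to 70.8%. At chr17:50253001-50254000, 25.4 kb from the germ cell gene Dazl, arsenic 1 was lowest at 14.9% and the others lay between 39.2% and 69.2%. Such differences between libraries of 1 group were larger than any difference between the group means at these tiles.

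To ask whether methylation differed between arsenic and control, methylated and unmethylated reads of every tile were compared over the 10 libraries with a quasi-binomial fit whose dispersion was moderated across all 165978 tiles, with limma's method. None of the 2462 tiles passed an adjusted p under 0.05 with a difference of at least 10 points (0% of all tiles passed), and the lowest adjusted p was 0.664. Without adjustment, 244 tiles (9.91%) had p under 0.05, against 5.8% of all tiles. Of these 68 (2.76%) were higher in arsenic libraries, against 2.47%, and 176 (7.15%) were lower, against 3.34%. By the same measure 7.82% of dense tiles at gene ends, 6.61% of those deep in genes and 2.94% of CpG-poor tiles between genes were lower. With limma on log2 ratios 24 tiles were higher and 80 lower, or 0.975% and 3.25% against 2.30% and 2.84% of all tiles, and none passed, with a lowest adjusted p of 0.971.

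Of the 176 lower tiles 100 were low, 48 intermediate and 28 high, and of the 68 higher tiles 23, 15 and 30. Over the low tiles the mean was 6.83%, 6.75%, 7.34%, 7.42% and 7.76% in control and 5.83%, 6.80%, 6.52%, 5.94% and 6.72% in arsenic libraries. The groups overlapped by arsenic 2, and 565 of the 878 tiles were lower in arsenic. Low tiles of the other kinds leaned the same way, 2653 of 4239 CpG-poor tiles between genes, 651 of 1060 dense tiles deep in genes and 6347 of 10693 at gene ends. High tiles had 88.6% ± 0.368 and 88.6% ± 0.516, and intermediate tiles 52.1% ± 0.504 and 51.0% ± 1.15 (SD, n = 5 each). Control libraries 4 and 5, which stood apart in earlier results of these data, had the highest means over low tiles, and without them the difference over low tiles (arsenic minus control) was -0.614 in place of -0.860 points. Reads in the whole table ran from 69771871 to 92434984 in control and from 87658994 to 100355708 in arsenic libraries, and the part of this depth in the difference was not tested.

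The tiles with the smallest p in each direction, 6 higher and 5 of 6 lower, are given as the nearest to a difference, though none passed. Differences in this and the next paragraph pool reads within a group and so can differ from the gap between library means. The lowest p, 0.000147 in the quasi-binomial fit before adjustment and 0.664 after, belonged to chr4:47519001-47520000, 35.8 kb from Sec61b, which encodes a subunit of the protein channel of the endoplasmic reticulum. Its 17 CpGs had 25.9%, 26.4%, 30.1%, 21.6% and 26.5% in control and 15.1%, 20.4%, 17.6%, 12.3% and 13.8% in arsenic libraries. Every arsenic library was below every control, with a pooled difference of -10.2 points. The tile 8.43 kb from Prdm14, a regulator of primordial germ cells, at chr1:13104001-13105000, had 20.5%, 22.7%, 16.5%, 22.5% and 20.4% in control and 9.61%, 14.3%, 15.3%, 13.9% and 12.4% in arsenic libraries, again without overlap, at -7.43 points and an adjusted p of 0.735.

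A further 3 of the lower tiles had smaller differences. At chr7:111122001-111123000 near the translation factor gene Eif4g2, the arsenic libraries reached 1.71%, library 5 had no methylated read among 934 (which allows up to 0.321%, counting error only) and the controls began at 2.25%. At chr12:51316001-51317000 near the ubiquitin ligase gene G2e3 the controls lay within 85.2% to 85.5% and the arsenic libraries between 74.0% and 81.7%. The tile near the oocyte homeobox gene Obox7 had 79.8% ± 1.65 and 75.1% ± 1.43 (SD, n = 5 each), with a slight overlap.

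Of the 6 higher tiles, chr15:83210001-83211000 near the glycosyltransferase gene A4galt had 66.8%, 67.1%, 59.4%, 71.4% and 76.1% in control and 80.04%, 75.7%, 75.7%, 77.9% and 81.7% in arsenic libraries. Control 5 overlapped the arsenic range, the pooled difference was 11.2 points and the adjusted p was 0.787. The tile near the predicted gene Gm597, chr1:29082001-29083000, had 19.6% ± 5.88 and 31.8% ± 3.801 (SD, n = 5 each), with 1 control above the lowest arsenic library. At chr10:71565001-71566000, 179 kb from the inositol kinase gene Ipmk, the controls ended at 71.4% and the arsenic libraries began at 71.7%. The tile near the interferon receptor gene Ifnar1 had 0 of 304 to 432 reads methylated in 3 controls (which allows up to 0.694% to 0.987%) and up to 0.826% in the others, with 7.06%, 12.8%, 0.269%, 6.41% and 0.844% in arsenic libraries, so 3 arsenic libraries carried its difference. Tiles near Ankrd1 and Skor2 had 5.17% ± 1.46 and 10.6% ± 2.45, and 83.3% ± 1.68 and 89.1% ± 2.81 (SD, n = 5 each).

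**Figure D5:**
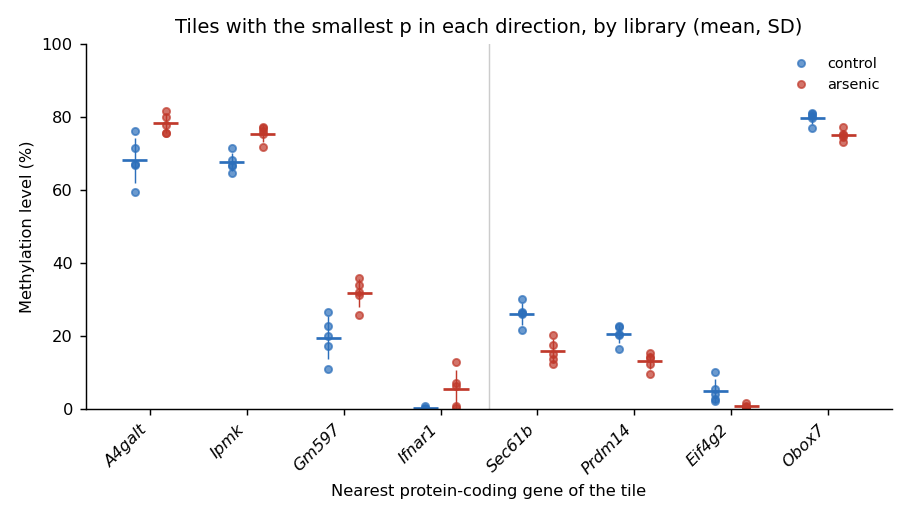
Methylation level (y axis, percent) of each library (points) in the 4 tiles with the smallest p in each direction, labelled by the nearest gene (x axis), with group means (bars) and SD (lines); tiles left of the grey line were higher in arsenic and those right of it lower. The tile near Sec61b runs from 21.6% to 30.1% in control and from 12.3% to 20.4% in arsenic libraries, and none of the 8 passed the adjusted threshold.

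Without any test, the 5 arsenic and 5 control levels did not overlap in 14 of 2462 tiles (0.569%), fewer in share than the 0.832% of all tiles. They are named after their values were seen. The 4 higher ones (all tiles 0.349%) lay near Ipmk, Skor2, Dicer1 and Nelfa, and 10 were lower (all tiles 0.483%), among them those near Sec61b, Prdm14, Eif4g2, G2e3, Zfhx3, Adra2a, Cavin4, 4931429L15Rik and Sec14l1. A difference of at least 10 points in either direction was found in 22 tiles (0.894%), against 1.20% of all tiles.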

How the data were processed

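Reduced representation bisulfite libraries of testis DNA from F2 mice, 5 of the control and 5 of the arsenic group, were analysed. The deposited table holds, per the file headers, the total, methylated and unmethylated read counts of each cytosine in each library. Per the submitters' processing notes, the build was mm10 and the tools include methylKit 1.22.0, Bismark 0.22.3 and Trim Galore 0.6.5. Their settings were not given in the sources used here. The counts are not normalized, and each listed cytosine has at least 10 reads in every library, so CpGs covered in only some libraries are missing. Reads carry no molecular identifiers.

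Reads were summed over 1 kb tiles, counting both strands of a CpG as 1 CpG. Gene positions came from RefSeq for GRCm38.p6. Of the measured CpGs inside RefSeq promoter sequences, 99790 of 99798 fell on CG. The group test was a quasi-binomial model with Pearson dispersion squeezed as in limma (floor 1), an F test and Benjamini-Hochberg adjustment over 165978 tiles. It was also run on simulated data, with differences set only in tiles of intermediate level. Whether differences in low or high tiles would be found was not simulated. Tools were Python 3.11.15, scipy 1.17.1, R 4.3.3 and limma 3.58.1, the last also on log2 ratios with a pseudocount of 0.5. Median reads per cytosine in the tiles described were 31.3 to 46.7 by library.

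The tiles, gene families and alternatives were chosen with earlier results of these data known. Tiles named in the group comparison were, in each direction, the 6 of lowest p. Tiles named elsewhere had the most CpGs in each level class or among annotated genes, the largest SD, the longest runs or the largest distance to a gene. Others were chosen after their values were seen. Alternatives changed the coverage minimum, grid, CpG number, distance, weighting, level classes, deep cytosines, test, replicate block and libraries used. No genome sequence or repeat annotation was used here, and 1 tile that the naming rule picked is not reported here.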

Additional observations from a re-analysis of the deposited data

Results flagged for a closer look

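In 11 of 106 groups of 5 libraries examined, 1 library stood apart from the other 4 by Dixon's criterion, and chance flags about 1 in 20 such groups. All 11 flags were at named tiles. In the run with Rn18s-rs5 near Esp38, arsenic library 5 was the high one at chr17:39843001-39844000 (17.02%, next 13.5%), chr17:39844001-39845000 (22.1%, next 17.4%), chr17:39845001-39846000 (24.8%, next 18.1%) and chr17:39848001-39849000 (15.9%, next 13.2%). Control library 5 was the high one at chr17:39847001-39848000 (25.1%, next 19.3%) and chr17:39848001-39849000 (17.2%, next 13.4%). These tiles adjoin each other, so their flags are not independent.

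At chr8:20297001-20298000 near Gm15319, arsenic library 3 was low at 48.7%, next to 55.9%. At chr14:120179001-120180000 near Mbnl2, control library 1 was low at 83.2%, next to 88.5%. At chr8:12430001-12431000 near Sox1, control library 4 had 2.55% and arsenic library 3 had 2.53%, next to 1.35% and 1.502%. At chr14:82364001-82365000 near Pcdh17, control library 5 was low at 85.2%, next to 91.4%.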

How the results depend on the processing

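None of the tiles described was called under any alternative run (limma called 1 of all tiles), and the 12 tiles with the smallest p kept their direction, with adjusted p of 0.203 or more. With 20 reads per cytosine as the minimum, 815 tiles were left, of which 33.3% were low, 21.2% intermediate and 45.5% high, and 16 were higher, 45 lower and 4 without overlap (1.96%, 5.52% and 0.491%, against 2.505%, 3.31% and 0.809% of all tiles). At 10 CpGs or more, 7768 tiles gave 23.5%, 31.4% and 45.1%, with 211 higher, 411 lower and 50 without overlap (2.72%, 5.29% and 0.644%). At 20 or more, 882 tiles gave 48.8%, 19.4% and 31.9%, with 27, 69 and 4 (3.06%, 7.82% and 0.454%), both against 2.47%, 3.34% and 0.832% of all tiles. Shifting the grid gave 28.0% intermediate and 37.1% high, and a distance of 10 kb gave 32.5% low and 40.3% high. Class limits of 10% and 90% gave 25.9%, 58.5% and 15.6%. Limma gave 24 higher and 80 lower. Leaving out 1 library in turn gave 32 to 41 tiles without overlap, since fewer libraries overlap less often (1.504% to 1.73% of all tiles), and leaving out control libraries 4 and 5 gave 90 (3.82% of all tiles). The mean difference over the tiles described ran from -0.789 to -0.480 when 1 library was left out.

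Libraries with the same number share only that number: the correlation of their deviations ran from -0.0126 to 0.0167, and 3 of 5 correlated best with their own number. With the replicate number as a block, 89 of the tiles described were higher (3.61%, against 2.72% of all tiles) and 218 lower (8.85%, against 4.003%) before adjustment, and 0 were called. Low tiles are limited by depth, since a level of a few percent rests on few methylated reads.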
